A study of Mus musculus with 8 samples.

Results

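Endothelial cells line blood vessels, and 10 genes that mark them or carry angiopoietin signals were followed in the mouse ventral prostate with and without an oncogenic transgene. The genes were Pecam1, Cdh5, Kdr, Flt1, Tek, Tie1, Cldn5, Emcn, Angpt1 and Angpt2. Every probe set annotated to exactly 1 of these symbols was used, which gave 13 probe sets of 22626 tested, with 3 for Flt1, 2 for Cdh5 and 1 for each other gene. The MT group held 4 arrays of ventral prostate from FVB mice that carry polyoma virus middle T antigen as a transgene, and the wild-type group held 4 arrays of the same lobe from FVB mice without it. All mice were males aged 8 weeks. The series sets normal prostate against prostate cancer that arises when MT is expressed, and the sources used here do not name the promoter of the transgene. Since no label ties each array to its own animal, the p-values cover only the scatter among these arrays, part or all of which may be technical.

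Vessels grow and settle under the control of the VEGF and angiopoietin receptors, among others. The VEGF receptors Kdr (VEGFR2) and Flt1 (VEGFR1) sit on endothelial cells and bind VEGF, with Kdr as the main signalling receptor and Flt1 largely as a decoy that holds the ligand. The receptor Tek, also called Tie2, binds the angiopoietins. Angpt1, made mainly by mural and other stromal cells, activates Tek and stabilises vessels, while Angpt2, released by endothelial cells, competes with it and loosens vessels where they are remodelled. Tie1 is a related receptor that pairs with Tek and binds neither ligand strongly. Pecam1, Cdh5 (VE-cadherin) and Cldn5 hold endothelial cells together at their junctions, and Emcn is a sialomucin of capillary and venous endothelium. Growing tumours commonly need new vessels, and Angpt2 and the VEGF receptors are often followed for that reason.

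The promoters of Tek, Cldn5 and Tie1 are shown because Tek and Cldn5 had the 2 largest differences among the 13 probe sets and Tie1, the partner of Tek, had the smallest in size. They were taken from RefSeq (GRCm38.p6), each with 250 bases before and 50 after the start of the gene, written 5′ to 3′ on the strand of the gene. Of the 10 genes, 6 had an entry in the promoter table. Capitals mark the letters GGAA, the core that ETS transcription factors bind, on either strand (TTCC is the same motif on the other strand). The windows are chr4:94739039-94739338 on the plus strand for Tek, chr16:18776597-18776896 on the plus strand for Cldn5 and chr4:118489800-118490099 on the minus strand for Tie1.
Tek: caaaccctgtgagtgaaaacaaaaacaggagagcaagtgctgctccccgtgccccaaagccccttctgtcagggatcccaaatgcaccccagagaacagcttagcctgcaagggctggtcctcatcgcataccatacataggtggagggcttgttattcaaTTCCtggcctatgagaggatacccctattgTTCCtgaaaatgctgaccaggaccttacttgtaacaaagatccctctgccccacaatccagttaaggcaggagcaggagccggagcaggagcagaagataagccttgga
Cldn5: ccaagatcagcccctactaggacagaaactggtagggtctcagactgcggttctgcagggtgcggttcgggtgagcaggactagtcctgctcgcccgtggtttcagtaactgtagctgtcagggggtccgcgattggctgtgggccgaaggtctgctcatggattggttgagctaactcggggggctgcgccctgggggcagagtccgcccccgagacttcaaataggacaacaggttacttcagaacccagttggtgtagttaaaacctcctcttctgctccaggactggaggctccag
Tie1: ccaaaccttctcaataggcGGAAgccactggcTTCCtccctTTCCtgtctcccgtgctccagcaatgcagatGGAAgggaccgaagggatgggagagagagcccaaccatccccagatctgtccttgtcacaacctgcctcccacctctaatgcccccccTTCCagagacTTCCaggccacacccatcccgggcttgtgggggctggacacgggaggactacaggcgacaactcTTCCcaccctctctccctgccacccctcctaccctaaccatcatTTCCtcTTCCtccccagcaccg
The motif occurred 9 times in the Tie1 window, 2 times in that of Tek and 0 times in that of Cldn5, against 6 for Emcn, 5 for Kdr and 4 for Flt1. It is common, since 95.9% of 27025 promoters of that length held it, with a median of 3 per promoter. These counts describe letters in the windows and were not set against the expression differences.

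Levels are log2 values made with RMA, and each difference is MT minus wild type. In limma, at a threshold of 0.05 on the adjusted p, 3 of the 13 probe sets were lower in MT and 0 were higher, with 3 at an unadjusted p under 0.05, all of them lower. The lower ones measured Tek, Cldn5 and 1 of 3 probe sets of Flt1. Across all 22626 probe sets 37.8% passed the threshold, 19.7% lower and 18.1% higher, so the share called among the 13 (23.1%) was below that of the array as a whole. The median difference of the 13 was -0.12, beside -0.01 for all probe sets, and their range ran from -0.50 to 0.21. Of the 13 differences 11 were negative.

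The 13 probe sets read low. The mean level of 11 of them was under the median of all probe sets (6.23), and of the probe sets under that median only 22.3% passed the threshold in either direction. Of 27 control probe sets for Bacillus transcripts, 25 read between 2.57 and 3.90 and 2 others between 3.99 and 5.86. All 13 probe sets were above the 25 dim controls on each of the 8 arrays, while Kdr, Angpt2 and Flt1 probe set 1451756_at alone were above all 27 controls on each array. The closest was Tie1, which came within 0.18 of the highest dim control of its array.

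**Figure D1:**
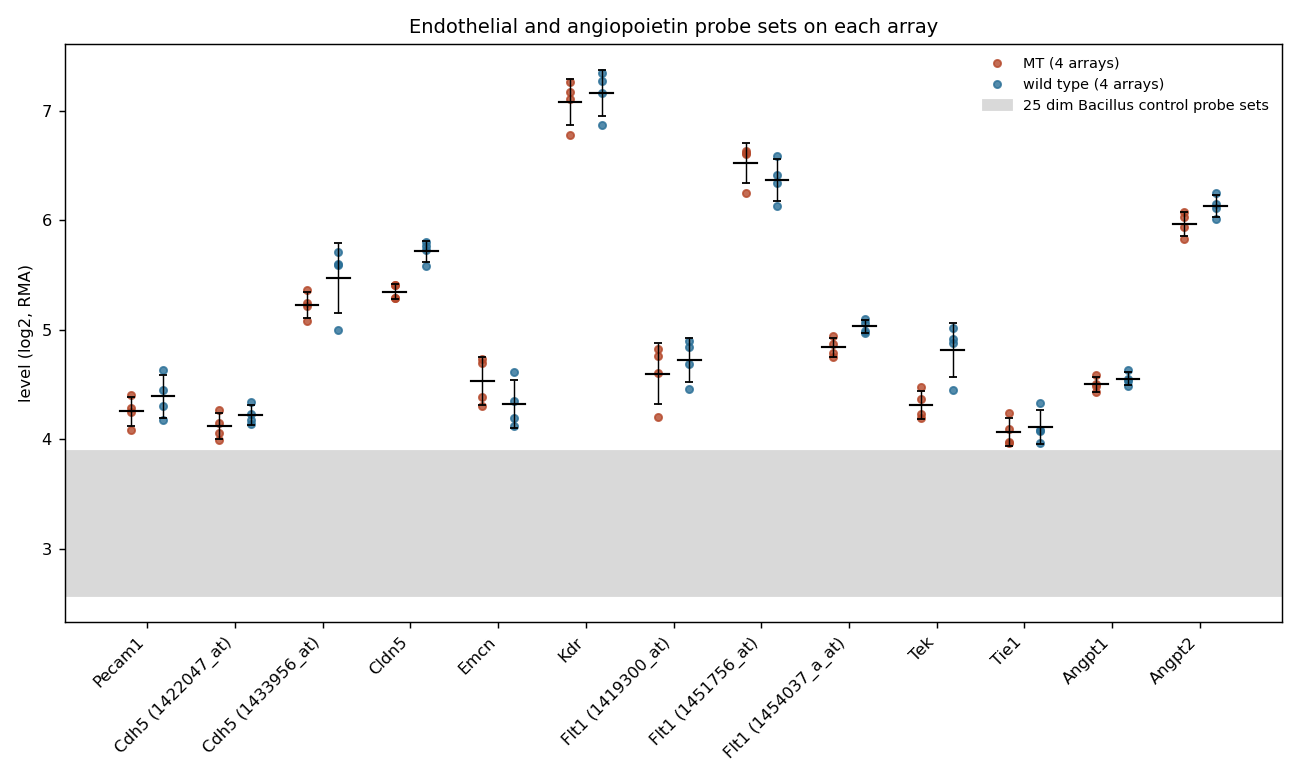
Level (log2, RMA) of the 13 probe sets on each of the 4 MT and 4 wild-type arrays. Points are arrays, wide bars are group means and thin bars are 1 SD. The grey band spans the 25 dim Bacillus control probe sets (2.57 to 3.90). The groups stand clear of each other for Cldn5 and Flt1 probe set 1454037_a_at and overlap for the other 11 probe sets.

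Among the receptors of the angiopoietin system, Tek was lower in MT prostate and Tie1 was not called. Tek had 4.37, 4.48, 4.24 and 4.19 on the MT arrays, against 5.02, 4.45, 4.88 and 4.91 on the wild-type arrays. The groups overlapped at a single point, since wild-type array 2, the lowest of its group, lay just under MT array 2, the highest of its own. The mean was 4.32 ± 0.13 in MT and 4.82 ± 0.25 in wild type (SD, n = 4 each), a log2 difference of -0.50 ± 0.12 (SE, adjusted p = 0.00601), so that Tek fell by 29.2%. The difference stayed past the threshold in all 19 alternatives that held Tek, from -0.67 to -0.43. Tie1 had 3.98, 3.97, 4.10 and 4.24 on the MT arrays and 4.09, 4.08, 4.33 and 3.96 on the wild-type arrays, fully interleaved. Its difference was -0.04 (95% confidence interval -0.25 to 0.16, adjusted p = 0.745).

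Neither angiopoietin passed the threshold. Angpt2 had 5.94, 6.08, 6.03 and 5.83 in MT and 6.01, 6.25, 6.15 and 6.11 in wild type. The MT values tended to the low side and the groups overlapped. Its difference was -0.16 (95% confidence interval -0.33 to 0.01, adjusted p = 0.127). Angpt1 had 4.59, 4.43, 4.49 and 4.50 in MT, against 4.54, 4.55, 4.63 and 4.49 in wild type, a difference of -0.05 (95% confidence interval -0.19 to 0.09, adjusted p = 0.595). The interval of Angpt2 reached no higher than 0.01 above the wild-type level on the log2 scale.

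Whether the 2 ligands moved unequally was tested on the within-array difference of Angpt2 and Angpt1, whose absolute size has no meaning because different probes read different levels. It was 1.35, 1.65, 1.54 and 1.33 on the MT arrays and 1.47, 1.69, 1.52 and 1.63 on the wild-type arrays. The change was -0.11 (two-sided exact permutation test over 70 assignments, p = 0.314, smallest possible p = 0.0286). A shift in the balance of the ligands was thus not detected beyond the spread between arrays, and the values of the groups overlapped.

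The VEGF receptors gave no common direction. Kdr, with the highest level of the 13, had 7.17, 6.78, 7.11 and 7.26 in MT and 7.27, 6.87, 7.16 and 7.34 in wild type. On both sides array 2 was the lowest. Its difference was -0.08 (95% confidence interval -0.35 to 0.19, adjusted p = 0.653). Without MT array 2 the Kdr difference was 0.02 (adjusted p = 0.921), and without array 2 of both groups it was -0.08 (adjusted p = 0.533).

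The 3 probe sets of Flt1 disagreed. Probe set 1454037_a_at had 4.87, 4.79, 4.75 and 4.95 in MT, against 4.97, 5.07, 5.10 and 4.99 in wild type, with no overlap. Its difference of -0.19 ± 0.07 (SE, adjusted p = 0.044) was close to the threshold and lost the call in 13 of the 16 alternatives that held it, at adjusted p-values up to 0.173. Of the single arrays, leaving out wild-type array 2, 3 or 4 or MT array 1, 2 or 3 was enough to lose it. Probe set 1451756_at, the brightest of the 3, had 6.61, 6.25, 6.60 and 6.63 in MT, against 6.42, 6.13, 6.34 and 6.58 in wild type. It pointed the other way, at 0.16 (95% confidence interval -0.09 to 0.40, adjusted p = 0.307). With wild-type array 4 and MT array 2 both left out this probe set was higher in MT, at 0.32 (adjusted p = 0.027). Probe set 1419300_at ranged from 4.20 to 4.83 in MT and from 4.46 to 4.90 in wild type, with a difference of -0.12 (adjusted p = 0.529). Whether the 3 probe sets differ from each other was not tested.

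Among the junction genes Cldn5 was lower in MT prostate. Cldn5, the main claudin of endothelial tight junctions, had 5.41, 5.29, 5.41 and 5.29 on the MT arrays, against 5.73, 5.58, 5.76 and 5.80 on the wild-type arrays. Each MT value lay under each wild-type value. The mean was 5.35 ± 0.07 in MT and 5.72 ± 0.09 in wild type (SD, n = 4 each), a difference of -0.37 ± 0.07 (SE, adjusted p = 0.00167), so that Cldn5 fell by 22.6%. The call held in all 19 alternatives that held Cldn5, from -0.41 to -0.32. Non-overlap of the groups was seen for 2 of the 13 probe sets, and for 37.5% of all probe sets.

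Cdh5, which forms the adherens junctions of endothelium, did not pass with either probe set. Probe set 1433956_at had 5.22, 5.25, 5.37 and 5.08 in MT, against 5.60, 4.999, 5.59 and 5.71 in wild type. Wild-type array 2 stood apart below all other values, and the remaining 3 wild-type values lay above all MT values. With all arrays the difference was -0.25 (95% confidence interval -0.55 to 0.06, adjusted p = 0.194). Without wild-type array 2 it was -0.40 (adjusted p = 0.00288), and without array 2 of both groups it was -0.41 (adjusted p = 0.00841), both past the threshold. The dimmer probe set 1422047_at ranged from 4.00 to 4.27 in MT and from 4.14 to 4.34 in wild type (-0.10, adjusted p = 0.337). That dimmer probe set stayed short of the threshold without wild-type array 2 as without any other array, at adjusted p-values from 0.168 to 0.611.

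Pecam1 and Emcn overlapped between the groups. Pecam1, which platelets and many leukocytes carry as well as endothelium, had 4.08, 4.25, 4.40 and 4.29 in MT and 4.45, 4.18, 4.31 and 4.64 in wild type. Its difference was -0.14 (95% confidence interval -0.36 to 0.09, adjusted p = 0.347). On the same arrays 10 of 16 leukocyte and platelet markers were higher and 0 lower, and the mean level of that list ran from 6.48 to 6.71 in MT and from 5.50 to 5.81 in wild type. The part of those cells in the Pecam1 value was not tested. Emcn had 4.31, 4.70, 4.39 and 4.74 in MT, against 4.35, 4.12, 4.61 and 4.20 in wild type. At 0.21 (95% confidence interval -0.07 to 0.49, adjusted p = 0.224) it had the highest difference of the 13 probe sets.

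For the 10 probe sets that did not pass, the 95% confidence intervals reached from -0.55 at the lowest to 0.49 at the highest. A 2-fold change in array signal in either direction, 1 on the log2 scale, lay outside all 10 intervals. In RNA from whole tissue, fewer endothelial cells and less RNA per endothelial cell cannot be told apart.

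**Figure D2:**
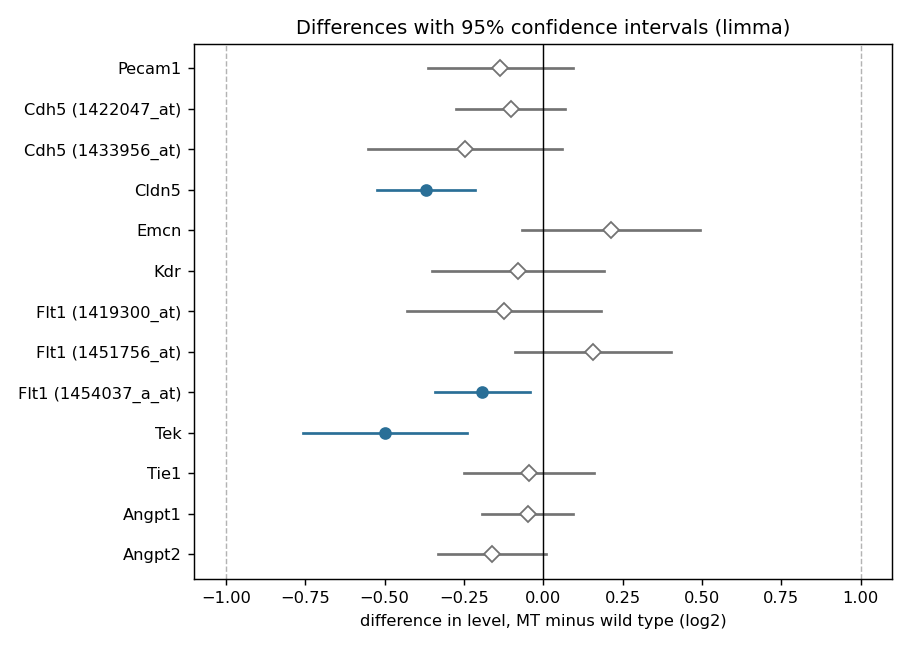
Difference in level (log2, MT minus wild type) of each probe set with its 95% confidence interval from limma. Filled circles passed an adjusted p of 0.05 and open diamonds did not, and dashed lines mark a 2-fold change. Tek (-0.50) and Cldn5 (-0.37) lie farthest from 0.

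Wild-type array 2 read low for these genes and MT array 2 less so, the latter being the highest of its group for Tek and Angpt2. MT array 2 was the lowest of its group for 6 of the 13 probe sets and lay below its group mean for 8, with a median deviation of -0.05. Wild-type array 2 was the lowest of its group for 8 and lay below the group mean for 11, with a median deviation of -0.20. Smooth muscle markers were below the group mean on the same arrays, for 11 of 11 genes on each, with median deviations of -0.45 on MT array 2 and -0.40 on wild-type array 2. Fibroblast and matrix markers were below it for 13 of 14 on MT array 2 (median -0.15) and for 14 of 14 on wild-type array 2 (median -0.42). MT array 1 was low for both lists too, with 10 of 11 smooth muscle markers (median -0.13) and 13 of 14 fibroblast and matrix markers (median -0.27) below the group mean. Over all probe sets the median deviation was 0.00 on MT array 2 and 0.01 on wild-type array 2. The cause was not tested. Without both arrays, 3 of the 13 probe sets were lower and 0 higher, beside 32.0% of all probe sets called in either direction. They were not the same 3 as with all arrays. Flt1 probe set 1454037_a_at lost the call (limma adjusted p = 0.173) and Cdh5 probe set 1433956_at gained it (adjusted p = 0.00841).

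**Figure D3:**
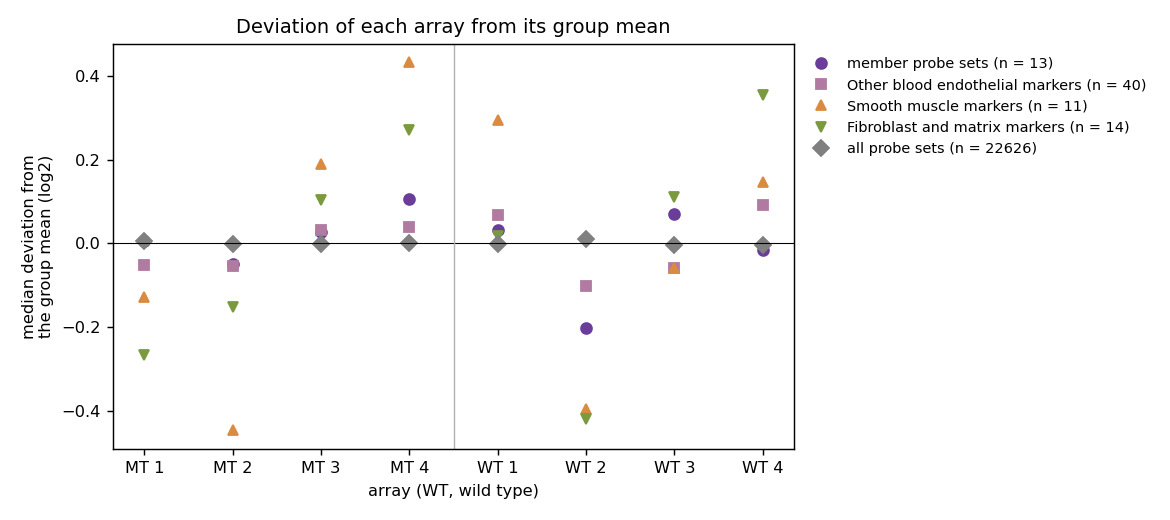
Median deviation (log2) of each array from its group mean, for the 13 member probe sets, 40 other blood endothelial markers, 11 smooth muscle markers, 14 fibroblast and matrix markers and all 22626 probe sets. Wild-type array 2 lies lowest of its group for the 4 gene sets, at -0.20 for the members, while all probe sets stay near 0.

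The wider set of blood endothelial markers moved in no single direction. Each gene was read through its probe set with the highest mean. Of 40 other markers measured, 4 were higher and 7 lower, 27.5% in all, beside 40.0% of 12393 genes, 19.3% higher and 20.7% lower. Their median difference was -0.02. The lower ones included Cav1, the caveolar coat protein that smooth muscle and fibroblasts make in quantity too, at 8.26 ± 0.23 in MT and 9.64 ± 0.41 in wild type (-1.38, adjusted p = 0.000138). Cd34, a sialomucin of capillary endothelium and also of fibroblasts and blood progenitors, was 5.27 ± 0.39 in MT and 6.60 ± 0.30 in wild type (-1.33, adjusted p = 0.000247). Icam1, an adhesion molecule that cytokines induce on endothelium and epithelium, rose to 6.14 ± 0.14 in MT, against 4.97 ± 0.24 in wild type (1.17, adjusted p = 1.58e-05). Eng, a co-receptor for BMP ligands on endothelium, and Vwf, the clotting factor stored in endothelial granules, did not pass (-0.17, adjusted p = 0.0866, and 0.28, adjusted p = 0.105). Vwf passed without wild-type array 4, at 0.37 (adjusted p = 0.0357).

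Genes of the VEGF system, with ligands, receptors, co-receptors and hypoxia-inducible factors among them, showed both directions. Of 15 measured, 2 were higher (Vegfb and Nrp1) and 5 lower (Vegfa, Vegfd, Sema3a, Hif1a and Epas1). The share called was 46.7%, beside 40.0% of all 12393 genes. Vegfd, a ligand of the lymphatic receptor Flt4, was 4.79 ± 0.20 in MT and 5.74 ± 0.32 in wild type (-0.95, adjusted p = 0.000538), and its 2 other probe sets were lower as well. Vegfa, the chief ligand of Kdr, was lower at 6.85, 6.59, 6.63 and 6.68 in MT, against 7.24, 7.25, 6.93 and 6.73 in wild type (-0.35, adjusted p = 0.0354). The groups overlapped, the call was lost without wild-type array 1 or 2 or MT array 2, 3 or 4, and a second probe set of Vegfa differed by 0.02. Averaged over its probe sets, Vegfa had a difference of -0.16 (adjusted p = 0.145). Nrp1, a co-receptor for VEGF that epithelium and leukocytes also carry, was higher at 7.49 ± 0.38 in MT and 6.67 ± 0.37 in wild type (0.83, adjusted p = 0.00764). Epas1, a hypoxia-inducible factor strongly made by endothelium, was 4.07 ± 0.06 in MT and 4.63 ± 0.24 in wild type (-0.56, adjusted p = 0.00164). Its MT mean lay just above the dim controls (up to 3.90). Sema3a, which competes with VEGF for Nrp1, was lower (-0.34, adjusted p = 0.00682). Vegfc did not pass (0.19, adjusted p = 0.278). Its means of 3.90 in MT and 3.71 in wild type were at the level of the dim controls, so its difference says little.

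Other genes around the angiopoietin receptors were likewise mixed, with 3 higher and 5 lower of 19 and a median of -0.04. The share called was 42.1%, close to the 40.0% of all 12393 genes. Ptprb, the endothelial phosphatase that restrains Tek, had 5.24, 5.08, 5.14 and 5.45 in MT and 5.35, 5.11, 5.32 and 5.28 in wild type (-0.04, 95% confidence interval -0.24 to 0.16, adjusted p = 0.767). Grb7, an adaptor that can bind Tek and that epithelium makes too, rose to 9.69 ± 0.08 in MT, against 8.81 ± 0.09 in wild type (0.88, adjusted p = 3.26e-06). The protease Adam17, a sheddase with many substrates, rose by 0.67 (adjusted p = 1.81e-05). Angptl4, an angiopoietin-like inhibitor of lipoprotein lipase that does not bind Tek, was lower (-0.69, adjusted p = 0.00603), while its other probe set differed by -0.03.

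Of 24 endothelial transcription factors, 2 were higher and 3 lower (20.8%, beside 40.0% of all 12393 genes), with a median of 0.01. Without wild-type array 2 the lower count was 5. Klf2, which blood flow induces in endothelium, was 6.07 ± 0.18 in MT and 6.46 ± 0.13 in wild type (-0.39, adjusted p = 0.00933). Klf4, made by endothelium and by epithelium, was lower as well (-0.90, adjusted p = 0.000196). Lmo2 and Ets2 were higher, at 1.00 (adjusted p = 4.23e-06) and 0.56 (adjusted p = 0.000127). Lmo2 acts with Tal1 in endothelial and blood cells, and Ets2 is made by many cell types.

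Markers of mural cells, which wrap vessels, were also mixed, whereas smooth muscle and matrix markers were lower. Of 17 pericyte and mural markers 3 were higher and 2 lower (29.4%, beside 40.0% of all 12393 genes), with a median of -0.05. The lower count was 1 without wild-type array 1, 3 or 4 or MT array 1, 2 or 3. Pdgfrb, the receptor that recruits pericytes, and Rgs5, a regulator of G protein signalling in them, did not pass (-0.15, adjusted p = 0.297, and 0.31, adjusted p = 0.275). The members of that list that changed most were Anpep (1.74, adjusted p = 9.92e-07), a peptidase also found on epithelium, Des (-1.01, adjusted p = 0.0022), the muscle intermediate filament, and Steap4 (0.91, adjusted p = 6.81e-05), a metalloreductase also made by epithelium. A second probe set of Des differed by 0.06.

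All 11 smooth muscle markers measured were lower in their brightest probe set, with a median of -1.07. Their mean level ran from 8.09 to 8.95 on the MT arrays and from 9.13 to 9.84 on the wild-type arrays. A second probe set of Acta2 differed by 0.09, and the 3 other probe sets of Tpm2 ranged from -1.20 to -0.08. Among them Myl9, a myosin light chain, was 9.29 ± 0.53 in MT and 10.53 ± 0.32 in wild type (-1.24, adjusted p = 0.00162). Myh11, the smooth muscle myosin heavy chain, differed by -1.16 (adjusted p = 0.00124) and the transcription factor Myocd by -1.11 (adjusted p = 0.00126). Of 14 fibroblast and matrix markers 12 were lower and 0 higher (median -0.88), or 1 higher without wild-type array 3, led by Dpt (-2.11, adjusted p = 3.59e-06), Mfap5 (-1.34, adjusted p = 0.000422) and Dcn (-1.28, adjusted p = 1.21e-06), all of the extracellular matrix. Of 13 basement membrane genes 9 were lower and 0 higher (median -0.59). Nid1, which links laminin to collagen, was 6.27 ± 0.20 in MT and 7.84 ± 0.47 in wild type (-1.57, adjusted p = 8.79e-05). Col18a1, the source of endostatin, differed by -1.13 (adjusted p = 4.51e-06), and Lama4, a laminin chain of vessel walls, by -1.04 (adjusted p = 7.31e-05). The part of these stromal differences in the lower Tek and Cldn5 values was not tested.

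**Figure D4:**
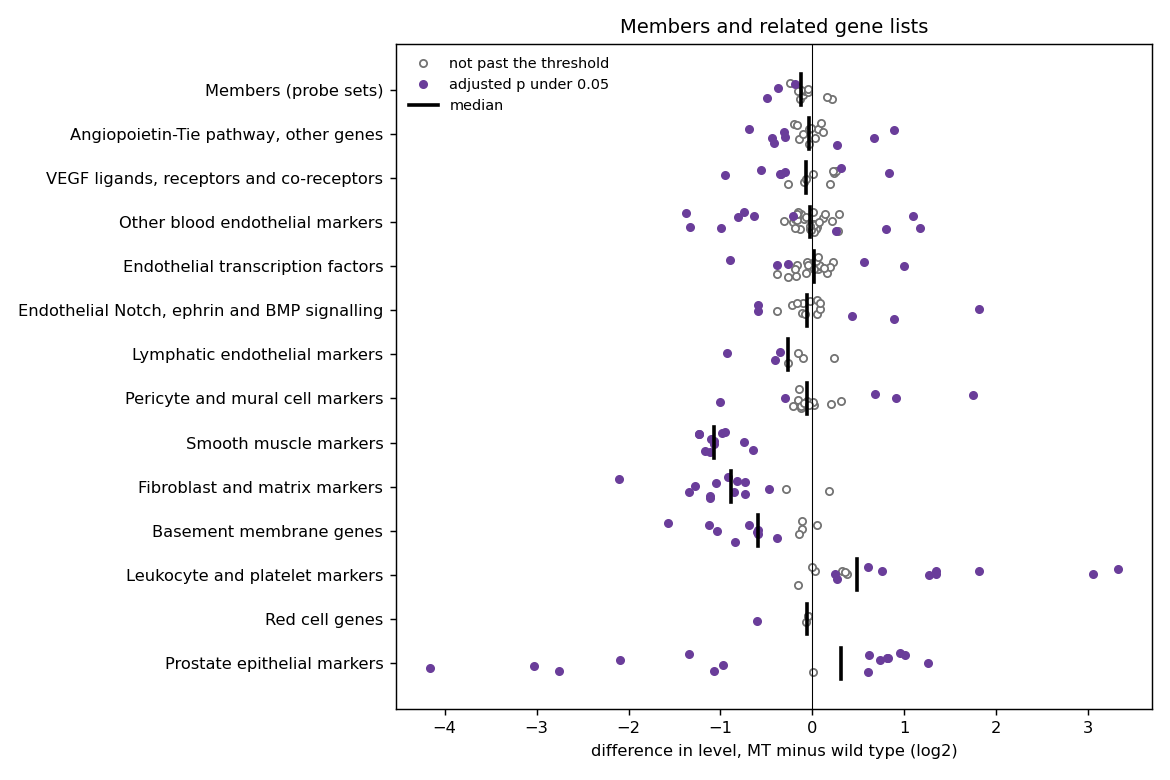
Difference in level (log2, MT minus wild type) of the 13 member probe sets and of the genes in 13 related lists. Filled points passed an adjusted p of 0.05 in limma, open points did not, and black bars are medians. The lists of blood endothelial genes centre near 0 and the members at -0.12. Smooth muscle (median -1.07) and fibroblast and matrix markers (median -0.88) lie farther to the left.

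The tissue matched its label. The prostate secretory genes Pbsn (probasin) and Spink1 read 9.12 ± 0.68 and 10.77 ± 0.18 in MT and 13.28 ± 0.38 and 13.81 ± 0.06 in wild type, which gave log2 differences of -4.16 for Pbsn (adjusted p = 1.28e-06) and -3.03 for Spink1 (adjusted p = 4.52e-09). The secreted glycoprotein Azgp1 was lower too (-2.75, adjusted p = 1.59e-08). Of 16 epithelial markers 8 were higher and 7 lower. The higher ones included Epcam (0.82), Cdh1 (0.60), Krt8 (1.01) and Krt18 (0.62). Besides secretory genes, the lower ones included the keratins Krt5 (-1.07) and Krt15 (-1.35). Array medians ran from 6.21 to 6.23 in MT and from 6.21 to 6.23 in wild type. The 3′ minus 5′ log2 signal of Actb, a measure of RNA integrity, ran from 0.57 to 0.85 in MT and from 0.71 to 1.05 in wild type. That of Gapdh ran from 0.45 to 0.64 in MT and from 0.54 to 0.92 in wild type. Both leaned higher in wild type, with overlap (two-sided exact permutation test, p = 0.114 for Actb and 0.0857 for Gapdh).

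Probe sets of other genes with the most similar pattern were found by the root mean square difference over the 8 arrays, after each probe set was centred on its own mean. The difference between the groups stays in this measure, so the nearest probe sets are bound to have similar differences. For Tek the nearest were Apcdd1 (0.060), Tcf4 probe set 1434149_at (0.066) and Pkdcc (0.090), whose own log2 differences were -0.54, -0.58 and -0.42. For the brighter probe set of Cdh5 they were Prkcb (0.10), Antxr2 (0.10) and Sesn1 (0.11). For Angpt2 they were Hdhd3 (0.040), Coprs (0.043) and Trp73 (0.046), and for Angpt1 they were Trim15 (0.028), Fmn2 (0.028) and Ptx3 (0.032). A small value is easily reached where a gene hardly varies, as Angpt1 did (0.060 about its own mean, against 0.30 for Tek).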

How the data were processed

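The deposited table holds log2 values of 22690 probe sets on 8 Affymetrix arrays, made by the authors with RMA (background correction, quantile normalization, probe summary), per the submitters' processing notes. The sources used here give no RMA version. Values span 2.47 to 14.27 and were used as deposited, without filter. After 64 controls were left out, 22626 probe sets were fitted in limma 3.58.1 (R 4.3.3; lmFit and eBayes, two-sided, default prior, without covariates), and p-values were adjusted by Benjamini-Hochberg over all of them and a threshold of 0.05. Precision is limited by the number of arrays. The platform annotation gave 20380 probe sets a single symbol; only these were named, and 20351 of them matched the RefSeq gene table with 0 symbols changed. Of 234 list entries 212 were measured.

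The members and lists were chosen with earlier results of these data known. Named genes were all members, up to 3 genes per list with the largest differences past the threshold without overlap of the groups, and 11 fixed genes. The background was to be read from all 27 Bacillus controls, but 2 were not dim, so 25 served. On simulated data the fit recovered 67.2% of changes of 0.5 and 96.6% of changes of 1 on the log2 scale over 22626 probe sets. Far fewer probe sets were changed in that simulation than passed the threshold in the real data (37.8%). The adjustment was therefore stricter there, and the recovered shares do not give the power of the real fit. Alternatives were another prior, array weights, the sample number as a block, filters, scalings, probe set rules, a stricter threshold and leaving out arrays. Figures used matplotlib 3.10.9.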

Additional observations from a re-analysis of the deposited data

Results flagged for a closer look

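Of 26 groups of 4 values (13 probe sets in MT and in wild type), 2 held a value far from the other 3 by Dixon's test, where chance flags about 1 in 20, or 1.3 of 26. Flt1 probe set 1451756_at read 6.25 on MT array 2, with the other MT arrays between 6.60 and 6.63. Cdh5 probe set 1433956_at read 4.999 on wild-type array 2, with the other wild-type arrays between 5.59 and 5.71. Both were the arrays numbered 2 and both values were low.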

How the results depend on the processing

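The calls of Tek and Cldn5 held in all 19 alternatives run for each. The count of lower member probe sets was 2 or 3 in all alternatives except the filter at the median level, which kept Kdr and Flt1 probe set 1451756_at only and gave 0. It was 2 to 3 when single arrays were left out. The count of higher ones was 0 except with wild-type array 4 and MT array 2 both left out, where it was 1. Over all features 8552 were called (37.8%). Refits on fewer features called 5088 with 1 probe set per gene (41.1%), 5112 with probe sets averaged (41.2%) and 5402 among unique-type probe sets (34.6%). In the lists 35 of 209 genes were higher, or 21 of 157 among unique-type probe sets. Single arrays left out gave 7355 to 8377 calls over all probe sets. Signs turned only for small differences. Averaged over its probe sets Flt1 was -0.053. When single arrays were left out Kdr ran from -0.18 to 0.02, Flt1 probe set 1419300_at from -0.21 to 0.0080, Tie1 from -0.10 to 0.028 and Ptprb from -0.11 to 0.0089. Without wild-type array 4 and MT array 2 Kdr was 0.080 and Ptprb 0.014. The cause was not tested. Angpt2 minus Angpt1 ran from -0.17 to -0.07 without single arrays, where 3 against 4 arrays cannot give an exact p under 0.0571. It had no alternative probe set pair, since each gene has 1 probe set. With the sample number as a replicate block 2 member probe sets were lower (Flt1 probe set 1454037_a_at had an adjusted p of 0.0813), 8633 probe sets were called in all, Vwf passed (0.28, adjusted p = 0.0283), 4 genes of Notch, ephrin and BMP signalling were lower against 2 without it, and Angpt2 minus Angpt1 was -0.11 (exact sign-flip p = 0.25, smallest possible 0.125). Same-numbered arrays deviated together at correlations from 0.078 to 0.164 over all probe sets and from 0.104 to 0.184 over 1 probe set per gene, and each array correlated best with its own number. No label states a shared litter or day and not every correlation over all probe sets was above 0.1, so the numbers were not used as pairs. Leaving out array 2 of both groups and the set of 25 controls were chosen after seeing the data. With all 27 controls 3 of the 13 probe sets were above background on each array.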

Other observations

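Further lists around vessels gave these values. Of 16 genes of endothelial Notch, ephrin and BMP signalling 3 were higher and 2 lower, with a median of -0.06. The share called was 31.25%, beside 40.0% of all 12393 genes. Efnb2, the ephrin of arterial endothelium that other cells make too, rose to 8.27 ± 0.10 in MT, against 6.46 ± 0.41 in wild type (1.81, limma adjusted p = 8.56e-06), while its 3 other probe sets ranged from -0.10 to 2.16. Notch1, a receptor of endothelium, epithelium and leukocytes, was higher by 0.88 (adjusted p = 3.09e-05), and Bmp6 was lower (-0.59, adjusted p = 0.00267). Bmp6 read 3.89 ± 0.09 in MT and 4.49 ± 0.28 in wild type, so its MT mean lay within the range of the dim controls (up to 3.90). Of 7 lymphatic markers 3 were lower and 0 higher (42.9%, beside 40.0% of all 12393 genes), with a median of -0.26. The largest difference was that of Pdpn, which basal epithelium and fibroblasts also make (-0.92, adjusted p = 6.69e-05). Lyve1 (-0.40, adjusted p = 0.0305) and Reln (-0.35, adjusted p = 0.0463) were lower with overlap of the groups. The other probe set of Lyve1 was also called lower, at -1.12. The lower count of that list was 1 without wild-type array 1, 3 or 4 or MT array 1, 2 or 3, and 1 marker was higher without wild-type array 3 or MT array 4.

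Among blood cell genes, Ptprc, the pan-leukocyte phosphatase CD45, rose to 6.67 ± 0.37 in MT, against 4.86 ± 0.43 in wild type (1.81, adjusted p = 6.67e-05). S100a8 was higher by 3.33 (adjusted p = 2.92e-08) and Ppbp, a chemokine stored in platelets that other cells can make, by 3.05 (adjusted p = 1.44e-08). The platelet factor Pf4 was higher too, at 8.49 ± 0.18 in MT and 7.22 ± 0.36 in wild type (1.26, adjusted p = 9.96e-05). The platelet integrin Itga2b and the platelet glycoprotein Gp9 did not pass (-0.16 and 0.00). Pf4, Itga2b and Gp9 were chosen after their values were seen. Of 4 red cell genes 1 was lower and 0 higher (Alas2, -0.60, adjusted p = 0.00699). Hba-a1 and Hba-a2, which encode alpha globin and have near-identical sequences, differed by -0.05 and -0.04, also chosen after their values were seen. They read only 3.92 and 4.33 in MT and 3.97 and 4.38 in wild type. The dim Bacillus controls reached 3.90, so these small differences say little about blood content.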
